A study of Mus musculus with 12 samples.

Results

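The genes described here are the 9 mouse efflux pump genes Abcc1 to Abcc6, Abcb1a, Abcb1b and Abcg2, taken by symbol from Entrez Gene identifiers among 24532 in the kidney RNA tables. All 9 had at least 1 TPM (transcript abundance scaled by length and by library) in at least 3 libraries and were among the 14488 genes tested. The 12 libraries formed 4 groups of 3. They were FXR knockout mice (strain Nr1h4tm1Gonz/J) given GW4064 for 6 h, knockout mice given vehicle, wild-type C57BL/6 mice given GW4064 for 6 h, and wild-type mice given vehicle. All were fasted overnight per the series' design text. GW4064 is a synthetic agonist of FXR, the bile acid receptor of the nuclear receptor family encoded by Nr1h4. The knockout is a targeted allele carried by the whole animal and not limited to the kidney. No dose, sex, age or vehicle composition, and no treatment time for the vehicle groups, is given in the sources used here. The series title names cisplatin kidney injury, but no library here was labelled as given cisplatin.

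These genes encode ATP-binding cassette pumps, membrane proteins that use ATP to carry drugs, conjugates and signaling molecules out of cells. In the proximal tubule of the kidney, pumps of the apical membrane (products of Abcc2, Abcc4, Abcg2 and the Abcb1 genes) empty into the urine what uptake carriers of the basolateral membrane bring in from the blood. Other members, such as the products of Abcc1 and Abcc3, face the blood side of epithelia. Many are known targets of ligand-activated or stress-activated transcription factors in the liver, and in rat liver cells Abcc2 is a known FXR target.

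The windows around the start sites are shown for 4 members, as RefSeq gives them on GRCm38.p6 (mm10), from 250 bases before to 50 bases after the start in the deposited tables. Abcc2 and Abcc4 are shown because they moved in opposite directions with the agonist in wild type, and Abcg2 because it was higher in the knockout on both treatments. Abcb1b is shown as the P-glycoprotein gene that was higher in the knockout under GW4064, though it did not pass on vehicle. Capitals mark letters that match a motif searched on both strands. The motifs were the nuclear receptor hexamer AGGTCA, the exact FXR inverted repeat (2 such hexamers facing each other, 1 base apart), the antioxidant response core TGACNNNGC and the xenobiotic response core GCGTG.
Abcc2, chr19:43782058-43782357, plus strand: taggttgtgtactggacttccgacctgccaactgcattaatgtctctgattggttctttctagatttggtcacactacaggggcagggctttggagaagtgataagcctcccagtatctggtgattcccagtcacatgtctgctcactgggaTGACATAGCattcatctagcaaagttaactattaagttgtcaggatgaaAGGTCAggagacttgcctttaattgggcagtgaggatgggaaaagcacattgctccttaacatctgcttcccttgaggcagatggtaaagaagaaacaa
Abcc4, chr14:118706170-118706469, minus strand: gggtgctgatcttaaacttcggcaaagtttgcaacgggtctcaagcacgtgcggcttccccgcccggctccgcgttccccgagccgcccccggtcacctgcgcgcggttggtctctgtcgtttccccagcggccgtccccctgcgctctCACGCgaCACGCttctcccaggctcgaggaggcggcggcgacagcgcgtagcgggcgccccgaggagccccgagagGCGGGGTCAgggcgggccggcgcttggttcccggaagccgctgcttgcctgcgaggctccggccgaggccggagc
Abcb1b, chr5:8797897-8798196, plus strand: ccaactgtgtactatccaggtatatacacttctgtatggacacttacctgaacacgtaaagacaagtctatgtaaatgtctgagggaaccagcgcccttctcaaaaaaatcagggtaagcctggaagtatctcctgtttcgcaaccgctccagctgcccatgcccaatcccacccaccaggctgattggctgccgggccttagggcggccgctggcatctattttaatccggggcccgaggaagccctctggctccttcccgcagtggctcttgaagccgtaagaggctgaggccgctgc
Abcg2, chr6:58596422-58596721, plus strand: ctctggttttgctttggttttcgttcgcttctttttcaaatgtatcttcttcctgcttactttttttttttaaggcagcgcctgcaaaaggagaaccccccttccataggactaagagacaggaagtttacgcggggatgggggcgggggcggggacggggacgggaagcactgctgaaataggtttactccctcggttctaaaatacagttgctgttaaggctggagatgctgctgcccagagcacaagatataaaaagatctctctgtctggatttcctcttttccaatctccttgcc
The Abcc2 window held 1 AGGTCA hexamer, starting at position -49 from the start site, and 1 antioxidant response core at -98. The Abcc4 window held 1 antioxidant response core at -25 and 2 xenobiotic response cores, at -101 and -94, all on the strand opposite to the one shown. The 4 motifs did not occur in the Abcb1b and Abcg2 windows, nor in that of Abcc5, the fifth member with a window at its deposited start. Among 32851 such windows of the genome, 16.3% held the hexamer, 12.4% the antioxidant response core, 32.4% the xenobiotic response core and 0.00913% the exact inverted repeat, which none of the 5 members held. The antioxidant response core includes the letters TGAC, which can overlap the hexamer's complement.

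The libraries held 2.86 to 4.27 gigabases of mapped sequence, from the ratio of deposited coverage to FPKM. Pairs of libraries of 1 group correlated at 0.982 to 0.988 over log2 values, and pairs from different groups at 0.970 to 0.987. Nr1h4 was at 105 to 134 TPM in knockout GW4064 libraries and 113 to 120 TPM in knockout vehicle libraries, against 189 to 242 TPM in wild-type GW4064 libraries and 217 to 267 TPM in wild-type vehicle libraries. All 6 knockout libraries were below all 6 wild-type ones, though a value per gene does not show which exons its reads cover. All 12 proximal tubule markers passed the filter. Of 6 hepatocyte markers 5 passed it, with sums of 682 to 1209 TPM over the libraries, and the sixth, Cyp7a1, was listed at 0 in all 12 libraries. Nothing in the labels says that the libraries of a group come from separate animals, so p-values measure only the spread between libraries. In whole tissue, fewer cells of a type and less RNA per cell cannot be told apart.

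Abcg2 and Abcc2 dominated the family in every library. Abcg2 (breast cancer resistance protein, an apical exporter of urate and sulfated compounds, Entrez Gene 26357, chromosome 6, 58596672 to 58692451, plus strand) ranged from 499 to 599 TPM over the 12 libraries. Abcc2 (MRP2, an apical exporter of glutathione and glucuronide conjugates, Entrez Gene 12780, chromosome 19, 43782308 to 43838218, plus strand) ranged from 375 to 660.1 TPM. The 9 genes summed to 1031 to 1353 TPM per library, and these 2 made up 86.1% to 90.6% of that sum. Coverage, the mean read depth per base, was 585 to 1015 for Abcg2 and 459 to 812 for Abcc2.

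Abcc4 (MRP4, an apical pump for cyclic nucleotides, urate and other organic anions, Entrez Gene 239273, chromosome 14, 118482692 to 118706219, minus strand) came next at 31.0 to 81.0 TPM. The microRNA gene Mir6391 lies within it on the same strand. Abcc5 (MRP5, an exporter of cyclic nucleotides, Entrez Gene 27416, chromosome 16, 20331304 to 20426394, minus strand) ranged from 34.2 to 44.8 TPM. Abcc1 (MRP1, an exporter of glutathione conjugates, Entrez Gene 17250, chromosome 16, 14361558 to 14474878, plus strand) ranged from 16.6 to 22.4 TPM. Coverage was 21.2 to 31.7 for Abcc5 and 21.0 to 31.2 for Abcc1, so their gap in TPM was not seen in coverage.

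The 4 others were below 15 TPM throughout. Abcb1a and Abcb1b (Entrez Gene 18671 and 18669, chromosome 5, 8660092 to 8748570 and 8798147 to 8866314, both on the plus strand) are neighboring mouse genes for P-glycoprotein, the multidrug efflux pump that a single gene encodes in humans. They ranged from 6.66 to 14.3 and from 6.24 to 14.6 TPM. Abcc6 (MRP6, whose loss in humans causes the mineralization disease pseudoxanthoma elasticum, Entrez Gene 27421, chromosome 7, 45976380 to 46030286, minus strand) ranged from 5.98 to 9.65 TPM. Abcc3 (MRP3, a basolateral pump that rises in cholestatic liver, Entrez Gene 76408, chromosome 11, 94343295 to 94392976, minus strand) was the lowest at 1.54 to 4.29 TPM, with a coverage of 1.88 to 5.26.

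The order of mean TPM was the same for the upper 5 genes in 3 of the 4 groups, Abcg2, Abcc2, Abcc4, Abcc5 and Abcc1. In the wild-type GW4064 group Abcc2 stood above Abcg2 and Abcc5 above Abcc4, but libraries overlapped within both pairs. Abcg2 and Abcc2 also overlapped in the knockout GW4064 group. Abcb1a and Abcc6 overlapped in both knockout groups, and in the wild-type vehicle group Abcc6 overlapped with Abcb1b, and Abcb1b with Abcb1a. Abcb1a and Abcb1b shared sequence: 7.49% of all 100-base windows of the longest Abcb1a coding transcript and 8.72% of those of Abcb1b occurred in the other gene (GENCODE M21). For 50-base windows these shares were 15.5% and 18.0%. No 50-base window was shared between any other pair of the 9. Reads in shared windows could have been assigned to either Abcb1 gene, so the levels of both carry that uncertainty.

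**Figure D1:**
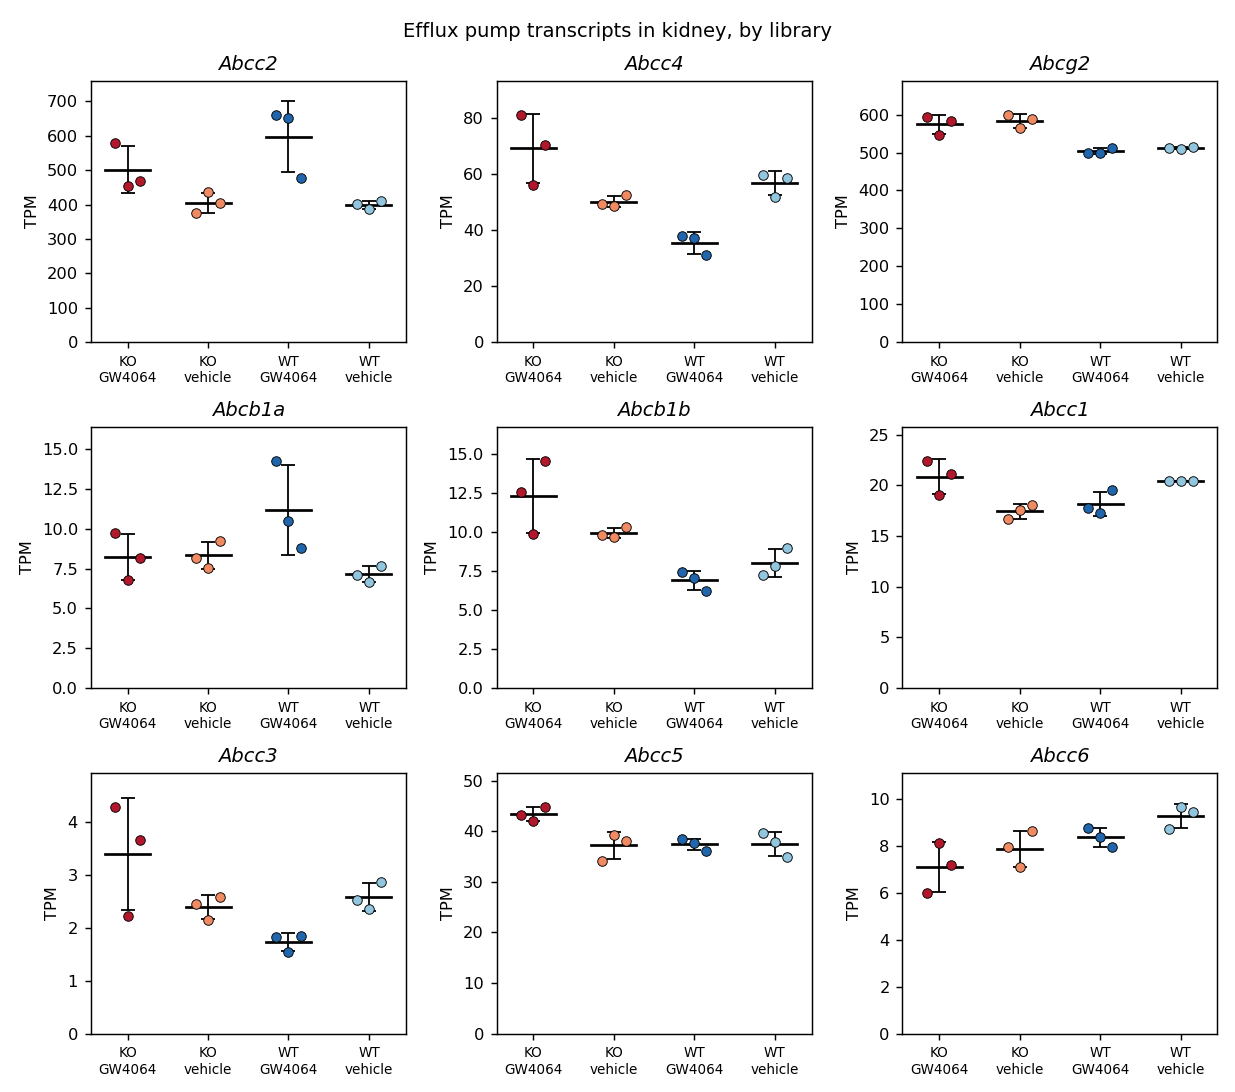
TPM of the 9 pump genes (vertical axes, each from 0) in the 12 libraries, by group. Points are libraries, bars the mean and whiskers the SD (n = 3). Abcc4 is lowest in the wild-type GW4064 group, at 31.0 to 37.8 TPM, and Abcg2 is higher in all 6 knockout libraries (546 to 599 TPM) than in all 6 wild-type ones (499 to 515 TPM).

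The first comparison asked what the agonist did where its receptor gene was disrupted. None of the 9 genes passed the test in the knockout (limma on log2(TPM + 0.5) over all genes tested, Benjamini-Hochberg adjusted p under 0.05), where 0.0138% of all genes did. At an unadjusted p under 0.05 there were 4 members of 9, with 10.8% of all genes, namely Abcc1, Abcc2, Abcc4 and Abcc5. In those same 4 every GW4064 library was above every vehicle library, which held for 8.78% of all genes tested, and 0 members lay wholly below, where 5.07% of all genes did. The median log2 difference was 0.25 over the 9 and 0.02 over all genes tested.

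Abcc4 measured 81.0, 56.2 and 70.1 TPM in knockout GW4064 libraries, against 49.3, 48.7 and 52.3 TPM in knockout vehicle libraries. The agonist libraries were higher and more spread, with replicate 2 nearest to the vehicle group. The log2 difference was 0.44 ± 0.12 (SE), with adjusted p = 0.235 (limma). Without knockout GW4064 replicate 2 it was 0.58, with adjusted p = 0.0425 (limma).

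Abcc2 measured 580.0, 454 and 469 TPM in knockout GW4064 libraries, against 375, 435 and 403 TPM in knockout vehicle libraries. The groups did not overlap, though 2 agonist libraries lay close to the highest vehicle library. The log2 difference was 0.30 ± 0.12 (SE, limma adjusted p = 0.39, 95% interval 0.04 to 0.57). Abcc1 (0.25 ± 0.07), Abcc5 (0.22 ± 0.06), Abcc3 (0.39 ± 0.19) and Abcb1b (0.28 ± 0.13) had positive log2 differences that did not pass either (limma adjusted p = 0.255, 0.257, 0.511 and 0.466). Those of Abcc6 (-0.15 ± 0.11), Abcb1a (-0.03 ± 0.17) and Abcg2 (-0.02 ± 0.04) were negative and did not pass (limma adjusted p = 0.682, 0.972 and 0.874).

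With the receptor gene intact, GW4064 raised Abcc2 and lowered Abcc4. These 2 of the 9 genes passed the test, 1 in each direction, where 2.48% of all genes rose and 2.32% fell. Abcc2 measured 660.1, 652 and 479 TPM in wild-type GW4064 libraries, against 400.5, 386 and 411 TPM in wild-type vehicle libraries. All 3 agonist libraries were above the vehicle group, replicate 3 by much less than the others. The log2 difference was 0.56 ± 0.12 (SE), 1.48-fold on the log2(TPM + 0.5) scale (limma adjusted p = 0.021). Leaving out any of 5 libraries ended the call. These were replicates 1, 2 and 3 of the wild-type vehicle group (limma adjusted p = 0.062, 0.066 and 0.0582) and replicates 1 and 2 of the wild-type GW4064 group (0.0949 and 0.0888 by the same limma test).

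Abcc4 measured 37.8, 37.2 and 31.0 TPM in wild-type GW4064 libraries, against 59.8, 51.7 and 58.4 TPM in wild-type vehicle libraries. The agonist libraries were all lower and the groups were well apart. The log2 difference was -0.68 ± 0.12 (SE), a fold of 0.626 (limma adjusted p = 0.00671), and the call held in all 24 alternatives (limma adjusted p up to 0.0327). The summed level of 12 proximal tubule markers was 69346 to 74447 TPM in wild-type GW4064 libraries and 61343 to 62016 TPM in wild-type vehicle libraries, with 2 markers higher, 1 lower and a median log2 difference of 0.04. Abcc2 rose and Abcc4 fell beside that sum, whose part in either result was not tested. Fat markers summed to 148 to 222 TPM in wild-type GW4064 libraries and 179 to 186 TPM in wild-type vehicle libraries, and 0 of 5 passed, with a median log2 difference of -1.03. With a fat score as a term in the fit the Abcc4 difference was -0.59 and still passed.

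The P-glycoprotein gene Abcb1a measured 14.3, 10.5 and 8.78 TPM in wild-type GW4064 libraries, against 7.09, 6.66 and 7.68 TPM in wild-type vehicle libraries. The groups did not overlap, but the agonist libraries were widely spread. The log2 difference of 0.59 ± 0.17 did not pass (limma adjusted p = 0.0722). It passed with quantile scaling, with array weights and when replicate 3 of the wild-type GW4064 group was left out (limma adjusted p = 0.0378, 0.0492 and 0.0335). Abcb1a is also expressed in endothelium, whose 9 markers summed to 464 to 494 TPM in wild-type GW4064 libraries and 503 to 533 TPM in wild-type vehicle libraries, with 0 markers higher and 1 lower. Their part in the Abcb1a values was not tested.

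The other 6 members did not pass in wild type. Abcc1 was at 17.8, 17.2 and 19.5 TPM in wild-type GW4064 libraries, against 20.4, 20.5 and 20.4 TPM in wild-type vehicle libraries (log2 difference -0.17 ± 0.07, limma adjusted p = 0.217). Abcc3 was at 1.83, 1.54 and 1.84 TPM in wild-type GW4064 libraries, against 2.52, 2.35 and 2.86 TPM in wild-type vehicle libraries (-0.46 ± 0.19, limma adjusted p = 0.217). For both, every agonist library was below every vehicle library, so with Abcc4 3 members of 9 had no overlap downward, and 16.7% of all genes tested did. With Abcc2 and Abcb1a, 2 of 9 had none upward, and 10.1% of all genes did. Abcb1b (-0.20 ± 0.13), Abcc6 (-0.14 ± 0.11), Abcg2 (-0.02 ± 0.04) and Abcc5 (-0.0003 ± 0.06) overlapped between groups (limma adjusted p = 0.451, 0.536, 0.808 and 0.999). The 95% interval of the Abcg2 difference was -0.11 to 0.06. The median log2 difference was -0.14 over the 9 and -0.03 over all genes tested.

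**Figure D2:**
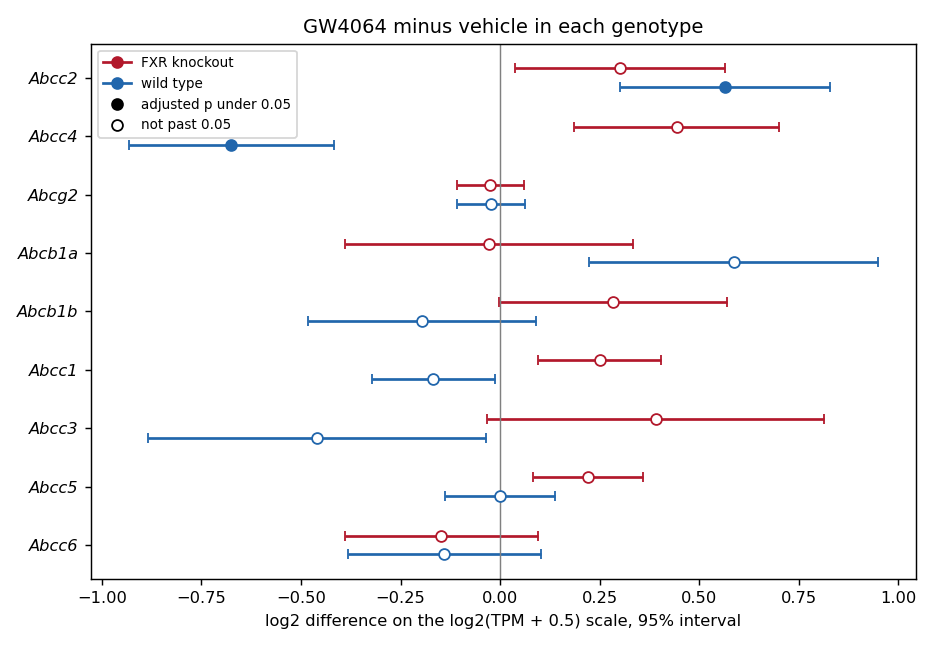
Log2 difference, GW4064 minus vehicle, of the 9 genes in FXR knockout (red) and wild type (blue). Points are limma estimates on the log2(TPM + 0.5) scale with 95% intervals, filled where the adjusted p was under 0.05. Abcc4 is at 0.44 in the knockout and -0.68 in wild type, and Abcc2 is above 0 in both.

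The agonist's effect on Abcc4 differed between genotypes. The interaction, the effect in the knockout minus the effect in wild type, was 1.12 ± 0.17 on the log2 scale (SE, limma adjusted p = 0.00492), and it passed in all 23 alternatives run for it. Abcc4 was higher with the agonist in 3 of 3 knockout libraries and lower in 3 of 3 wild-type libraries. Abcc1 also passed (0.42 ± 0.10, limma adjusted p = 0.0463), so 2 of 9 members passed upward, where 1.47% of all genes did (3.19% in either direction), and 0 downward, where 1.72% did. The Abcc1 call was lost in 17 of 23 alternatives. Removing any library but replicate 3 of the wild-type GW4064 group or replicate 2 of the knockout GW4064 group was enough (limma adjusted p up to 0.115). With the fat score in the fit it reached 0.133 (limma adjusted p).

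For Abcc2 a difference between genotypes was not shown. Its interaction was -0.26 ± 0.17 (SE, limma adjusted p = 0.438), with a 95% interval of -0.64 to 0.11, which holds both no difference and an effect smaller in the knockout by more than the whole wild-type rise of 0.56. Slc51a, a known FXR target that encodes a subunit of a bile acid exporter, had an interaction of -3.83 ± 0.17 (limma adjusted p = 1.3e-06). Abcb1a (-0.61 ± 0.23), Abcb1b (0.48 ± 0.18), Abcc3 (0.85 ± 0.27) and Abcc5 (0.22 ± 0.09) did not pass for the interaction (limma adjusted p = 0.186, 0.19, 0.122 and 0.213). Abcc3 passed without knockout GW4064 replicate 2 (limma adjusted p = 0.0207). Abcc6 (-0.01 ± 0.16) and Abcg2 (-0.002 ± 0.05) were near 0 (limma adjusted p = 0.989 and 0.991).

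**Figure D3:**
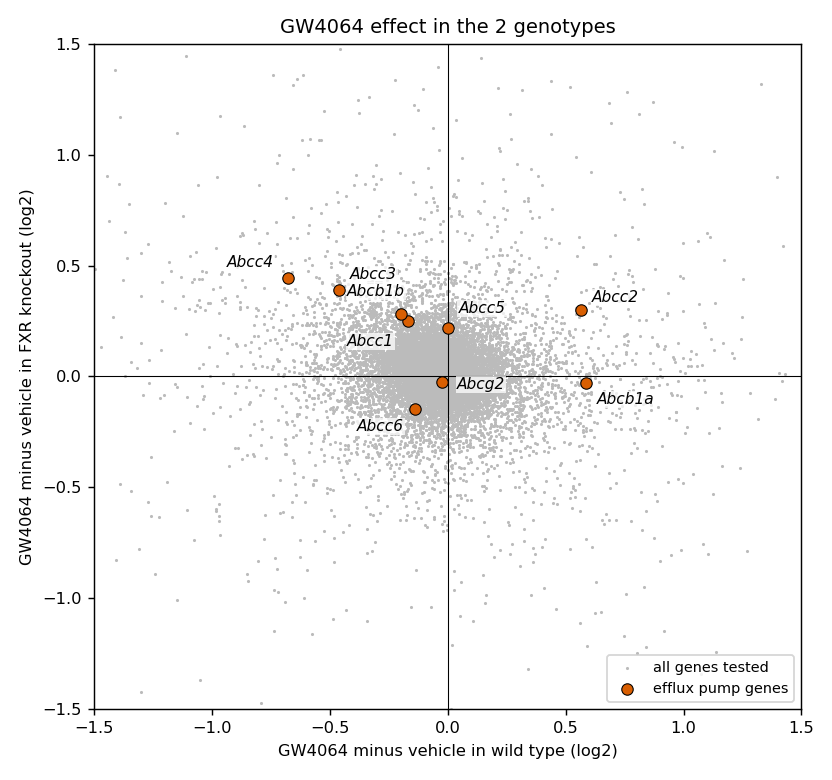
Log2 difference with GW4064 in wild type (horizontal) against that in FXR knockout (vertical) for all 14488 genes tested (grey) and the 9 pump genes (orange). The 2 axes share no library, and 99 genes lie outside the limits of ±1.5. Abcc4, Abcc3, Abcb1b and Abcc1 lie in the upper left quadrant, and Abcc2 in the upper right.

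Ratios of members within a library do not change when all values of that library are multiplied by the same factor. The ratio of Abcc2 to Abcc4 TPM was 7.16, 8.09 and 6.68 in knockout GW4064 libraries and 7.61, 8.94 and 7.71 in knockout vehicle libraries. It was 17.5, 17.5 and 15.4 in wild-type GW4064 libraries, against 6.70, 7.47 and 7.04 in wild-type vehicle libraries. The 3 wild-type agonist libraries thus stood far above the other 9, which lay between 6.68 and 8.94. The ratio of Abcb1b to Abcb1a was 1.30, 1.45 and 1.79 in knockout GW4064 libraries and 1.20, 1.28 and 1.12 in knockout vehicle libraries. It was 0.522, 0.671 and 0.711 in wild-type GW4064 libraries, against 1.02, 1.17 and 1.17 in wild-type vehicle libraries. Abcb1a was the higher of the pair only in the 3 wild-type agonist libraries. Both ratios were chosen after the values were seen and were not tested.

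**Figure D4:**
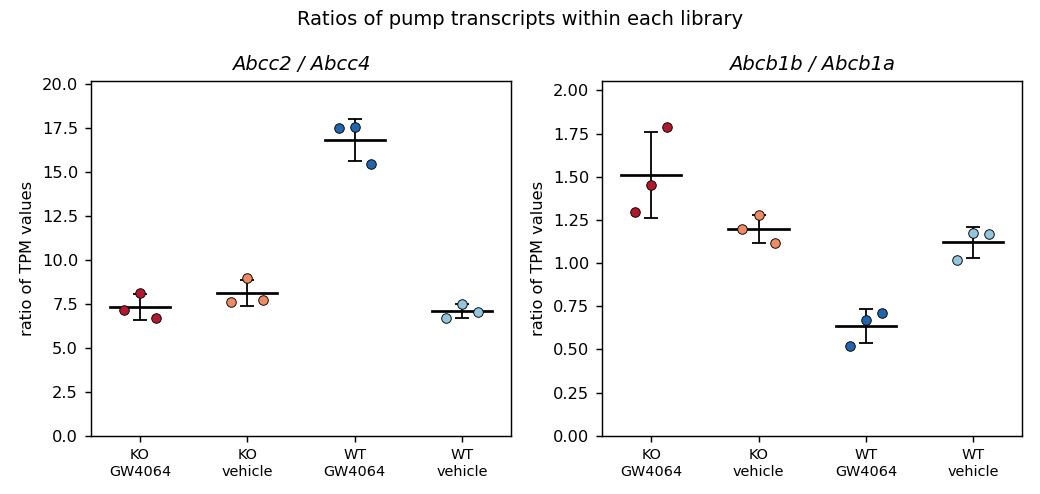
Ratio of Abcc2 to Abcc4 TPM (left) and of Abcb1b to Abcb1a TPM (right) in each of the 12 libraries, by group. Points are libraries, bars the mean and whiskers the SD (n = 3). The wild-type GW4064 libraries stand apart, at 15.4 to 17.5 on the left and 0.522 to 0.711 on the right.

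Under GW4064, knockout kidneys held more Abcc4, Abcb1b, Abcc3, Abcc5 and Abcg2 transcript than wild-type kidneys. These 5 of 9 members passed upward, where 7.08% of all genes did, and 0 passed downward, where 11.4% did. In the same 5 every knockout library was above every wild-type library, which held for 14% of all genes, and 0 members lay wholly below, where 22.7% did. This comparison shares the wild-type GW4064 libraries with the comparison of agonist and vehicle in wild type. Abcc4 averaged 69.1 ± 12.4 TPM in knockout and 35.3 ± 3.77 TPM in wild-type GW4064 libraries (SD, n = 3 each), with a log2 difference of 0.95 ± 0.12 (SE, limma adjusted p = 2.1e-04). Proximal tubule markers summed to 67484 to 73307 TPM in knockout and 69346 to 74447 TPM in wild-type GW4064 libraries. Of these 12 markers 2 were higher and 6 lower in the knockout, with a median log2 difference of -0.16, and their part in the 5 calls was not tested.

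Abcb1b measured 12.6, 9.84 and 14.6 TPM in knockout GW4064 libraries, against 7.45, 7.04 and 6.24 TPM in wild-type GW4064 libraries. The knockout libraries were all higher, with a log2 difference of 0.78 ± 0.13 (SE, limma adjusted p = 0.00164). The calls of Abcc4, Abcb1b and Abcg2 held in all 24 alternatives (limma adjusted p up to 0.00449, 0.0134 and 0.028).

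Abcc3 measured 4.29, 2.23 and 3.65 TPM in knockout GW4064 libraries, against 1.83, 1.54 and 1.84 TPM in wild-type GW4064 libraries. Knockout replicate 2 lay well below its group, and the log2 difference was 0.76 ± 0.19 (limma adjusted p = 0.0178). The call ended when replicate 2 of the wild-type GW4064 group or replicate 1 or 3 of the knockout GW4064 group was left out (limma adjusted p = 0.0627, 0.0663 and 0.0637). It also ended with the fat score in the fit and with only the 2 groups in the fit (limma adjusted p = 0.0538 and 0.0646). The 7 fat markers listed summed to 164 to 290 TPM in knockout and 148 to 222 TPM in wild-type GW4064 libraries. Of the 5 tested 0 passed, with a median log2 difference of 0.97.

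Abcc5 measured 43.2, 42.0 and 44.8 TPM in knockout GW4064 libraries, against 38.4, 37.6 and 36.2 TPM in wild-type GW4064 libraries. The groups did not overlap, with a log2 difference of 0.21 ± 0.06 (limma adjusted p = 0.0387). The call ended when any of the 6 GW4064 libraries or replicate 2 of the wild-type vehicle group was left out (limma adjusted p up to 0.116), with the fat score in the fit (0.0683) and with no variance trend (0.0564). Abcc1 (0.19 ± 0.07), Abcc2 (-0.25 ± 0.12), Abcc6 (-0.23 ± 0.11) and Abcb1a (-0.41 ± 0.17) did not pass (limma adjusted p = 0.0801, 0.188, 0.179 and 0.113). Abcc1 passed with median-of-ratios or quantile scaling (0.0447 and 0.0456, limma adjusted p) and when replicate 2 of the knockout GW4064 group was left out (0.033). Abcc2 and Abcb1a passed, lower in the knockout, when replicate 3 of the wild-type GW4064 group was left out (0.0197 and 0.0448, limma adjusted p).

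On vehicle Abcg2 was higher in the knockout, the single member of 9 to pass in either direction. It measured 599, 564 and 588 TPM in knockout vehicle libraries, against 511, 508 and 515 TPM in wild-type vehicle libraries. The knockout libraries were all higher and the spread within each group was small. The log2 difference was 0.19 ± 0.04 (SE, limma adjusted p = 0.0104), where 3.19% of all genes rose and 9.73% fell. Under GW4064 it measured 594, 546 and 583 TPM in knockout libraries, against 499, 499.6 and 512 TPM in wild-type libraries, a log2 difference of 0.19 ± 0.04 (limma adjusted p = 0.00593). In both treatments the call held in all 24 alternatives, with limma adjusted p up to 0.0384 on vehicle. The summed proximal tubule markers were 66653 to 78353 TPM in knockout vehicle libraries and 61343 to 62016 TPM in wild-type vehicle libraries, and 0 of 12 passed. Endothelial markers summed to 434 to 466 TPM in knockout vehicle libraries and 503 to 533 TPM in wild-type vehicle libraries, and 5 of 9 were lower in the knockout. On vehicle 4 of 5 podocyte markers (137 to 154 TPM in knockout, 182 to 191 TPM in wild type) and 4 of 6 stromal markers (167 to 194 TPM in knockout, 234 to 305 TPM in wild type) were also lower. Of 6 immune cell markers tested 3 were higher (list sums of 107 to 118 TPM in knockout and 79.5 to 85.7 TPM in wild type). Of 5 hepatocyte markers tested 1 was higher (list sums of 1025 to 1135 TPM in knockout and 697 to 775 TPM in wild type). Under GW4064 2 of 12 proximal tubule markers were higher and 6 lower in the knockout. The part of these lists in the Abcg2 values was not tested.

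The other 8 members did not pass on vehicle. Abcc1 was at 16.6, 17.6 and 18.1 TPM in knockout vehicle libraries, against 20.4, 20.5 and 20.4 TPM in wild-type vehicle libraries (log2 difference -0.22 ± 0.07, limma adjusted p = 0.0576). Its groups did not overlap, and it passed with a filter of 5 TPM and when replicate 1 or 2 of the knockout GW4064 group was left out (limma adjusted p = 0.0473, 0.0495 and 0.0427). Abcb1b was at 9.79, 9.66 and 10.3 TPM in knockout vehicle libraries, against 7.21, 7.82 and 8.97 TPM in wild-type vehicle libraries (0.30 ± 0.13, limma adjusted p = 0.148). Abcc6 was at 7.93, 7.08 and 8.61 TPM in knockout vehicle libraries, against 8.71, 9.65 and 9.42 TPM in wild-type vehicle libraries, again without overlap (-0.22 ± 0.11, limma adjusted p = 0.195). Abcc2 (0.02 ± 0.12), Abcc3 (-0.09 ± 0.19), Abcc4 (-0.17 ± 0.12), Abcc5 (-0.01 ± 0.06) and Abcb1a (0.21 ± 0.17) overlapped (limma adjusted p of 0.346 or higher). The 95% interval of the Abcc2 difference was -0.25 to 0.28. With no overlap between groups 2 of 9 members were higher in the knockout (Abcb1b and Abcg2), as were 7.89% of all genes, and 2 were lower (Abcc1 and Abcc6), as were 26.8%. The median log2 difference was -0.01 over the 9 and -0.09 over all genes tested.

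**Figure D5:**
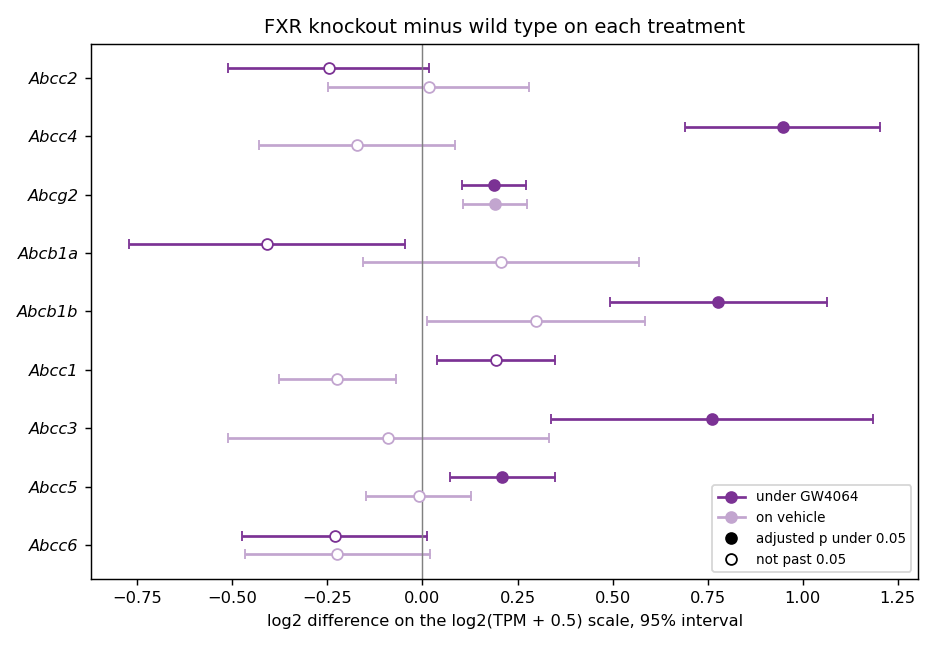
Log2 difference, FXR knockout minus wild type, of the 9 genes under GW4064 (dark) and on vehicle (light). Points are limma estimates on the log2(TPM + 0.5) scale with 95% intervals, filled where the adjusted p was under 0.05. Abcg2 is at 0.19 on both treatments, while Abcc4 is at 0.95 under GW4064 and -0.17 on vehicle.

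The patterns of the 7 members that passed in some comparison were set beside those of 10981 genes with a mean of at least 5 TPM. Genes without a symbol and gene models (Gm-number or Rik names) were left out of these 10981. Likeness was the root mean square difference of log2 values over the 12 libraries, each gene scaled to a mean of 0 and an SD of 1, so that 0 is an identical pattern. Nearest to Abcc4 were Ugdh (0.345), which makes UDP-glucuronate, the tight junction gene Cldn4 (0.363) and Usp40 (0.391). Nearest to Abcc2 were Gclm (0.433), whose product regulates glutathione synthesis, Atg12 (0.460) and Rnf149 (0.476). Nearest to Abcb1b were Mgst1 (0.276), a microsomal glutathione transferase, Ddc (0.321) and the quinone reductase gene Nqo1 (0.350). Nearest to Abcg2 were Prxl2a (0.273), Taf4b (0.319) and the fatty acid binding protein gene Fabp1 (0.331). Abcc3 was nearest to Rapgef5 (0.324), Cited2 (0.384) and Cldn4 (0.392), Abcc1 to Plekhg1 (0.374), Sf3b1 (0.464) and Cln3 (0.466), and Abcc5 to Tmco4 (0.473), Pmm1 (0.474) and Zfp36l1 (0.549).

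Transcription factors known to act on pump genes in other settings numbered 19, and all were tested. With GW4064 in wild type 1 rose and 3 fell, 21.1% of the list against 4.8% of all genes. The riser was Nr1i2, which encodes the xenobiotic receptor PXR, at 24.2 ± 4.18 TPM in wild-type GW4064 libraries and 7.92 ± 0.0833 TPM in wild-type vehicle libraries (SD, n = 3 each; log2 1.54 ± 0.13, limma adjusted p = 4.9e-05). The genes that fell were the vitamin D receptor Vdr (-0.63 ± 0.11), the fatty acid receptor Ppara (-0.42 ± 0.08) and Hif1a (-0.23 ± 0.04). In the knockout 0 of 19 passed with the agonist, where only 0.0138% of all genes did. Between genotypes on vehicle 3 of the 19 were higher in the knockout and 5 lower, 42.1% of the list against 12.9% of all genes. Under GW4064 4 were higher and 4 lower, 42.1% against 18.5%. Nfe2l2, which encodes the antioxidant regulator NRF2, was higher in the knockout on vehicle (0.21 ± 0.05) and under GW4064 (0.38 ± 0.05, limma adjusted p = 4.8e-04). Vdr was also higher on both treatments (0.46 ± 0.11 and 0.99 ± 0.11). Nr1i2 was higher on vehicle (0.64 ± 0.13) and lower under GW4064 (-0.83 ± 0.13). Nr1h4 itself and Esrra were among the lower ones on both treatments.

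NRF2 also acts on several pump genes in mouse liver. Of 22 NRF2 targets tested, 12 were higher and 3 lower in the knockout under GW4064, 68.2% of the list against 18.5% of all genes. Sulfiredoxin Srxn1 was at 107 ± 10.8 TPM in knockout and 48.9 ± 3.75 TPM in wild-type GW4064 libraries (SD, n = 3 each) (log2 1.11 ± 0.08), and the log2 difference of Nqo1 was 1.00 ± 0.13. The lower ones were Osgin1 (-1.68 ± 0.27), Gsr (-0.37 ± 0.06) and Gclm (-0.31 ± 0.05). The same 3 rose with GW4064 in wild type, a comparison that shares the wild-type GW4064 libraries. There 3 other targets fell, Tkt (-0.35 ± 0.05), Ugdh (-0.32 ± 0.05) and Gstm1 (-0.32 ± 0.08). In all 27.3% of the list passed in wild type, against 4.8% of all genes. For the interaction 6 of the 22 passed upward and 0 downward, 27.3% of the list against 3.19% of all genes. Of 25 conjugating enzyme genes of phase 2 metabolism, whose products such pumps carry, 13 were higher and 1 lower in the knockout under GW4064. This was 56% of the list against 18.5% of all genes, led by Gstp1 (0.79 ± 0.06). Between genotypes on vehicle 7 of the 25 were higher in the knockout, among them Gstp1 (0.25 ± 0.06), and 1 was lower. This was 32% of the list against 12.9% of all genes. With GW4064 in wild type 1 of the 25 rose and 4 fell, 20% against 4.8% of all genes. On vehicle 4 of the 22 NRF2 targets were higher in the knockout and 2 lower, 27.3% of the list against 12.9% of all genes. For the agonist in the knockout, 0 of 22 and 0 of 25 passed, where 0.0138% of all genes did. Their median log2 differences were 0.25 and 0.05, against 0.02 over all genes. The part of NRF2 in the pump values was not tested.

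Carriers that work beside the pumps and other ABC genes were set next to them. Of 27 carriers of drugs and organic solutes tested, 3 rose with GW4064 in wild type (Slc51a, Slc51b and Slc17a4) and 0 fell, 11.1% of the list against 4.8% of all genes. Under GW4064 2 were higher and 9 lower in the knockout, 40.7% of the list against 18.5% of all genes. That comparison shares the wild-type GW4064 libraries, and Slc51a (-3.87 ± 0.12) and Slc51b (-2.76 ± 0.13) were among the 9 lower ones. The higher ones were Slc22a12 (0.44 ± 0.08) and Slc17a1 (0.19 ± 0.04). Between genotypes on vehicle 2 carriers were higher in the knockout and 2 lower, 14.8% against 12.9% of all genes. Of 29 other ABC transporter genes, 0 rose and 1 fell with GW4064 in wild type, the potassium channel subunit gene Abcc9 (-0.41 ± 0.09), which was 3.45% of the list against 4.8% of all genes. For the interaction 0 of 29 passed, where 3.19% of all genes did. On vehicle 2 of the 29 were higher in the knockout, the peroxisomal fatty acid importer gene Abcd3 (0.49 ± 0.04) and the cholesterol exporter gene Abca1 (0.41 ± 0.08), and 3 were lower, 17.2% of the list against 12.9% of all genes. These shares of other ABC genes lay near those of all genes. Of 7 scaffold and linker genes that anchor apical pumps, 1 rose with GW4064 in wild type, the ezrin gene Ezr (0.24 ± 0.03). None fell, so 14.3% of the list passed, against 4.8% of all genes. Ezr was also higher in the knockout on vehicle (0.29 ± 0.03, limma adjusted p = 2.6e-04), with 0 of 7 lower, 14.3% against 12.9% of all genes. It passed downward for the interaction (-0.36 ± 0.04, limma adjusted p = 0.00148), 14.3% against 3.19% of all genes. Under GW4064 the scaffold genes Slc9a3r1 (-0.36 ± 0.07) and Pdzk1 (-0.24 ± 0.07) were lower in the knockout, 28.6% of the list against 18.5% of all genes.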

How the data were processed

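Total RNA of mouse kidney was sequenced from stranded libraries, per the labels, in 4 groups of 3 samples taken from the sample titles. The submitters' processing notes name HISAT2, StringTie, Cufflinks and the mm10 build, with no version, role or annotation. The deposited TPM values, made by the authors per gene length to a total of 1000000, were used for all tests. The deposited FPKM values served as an alternative, and the deposited coverage signal for depth. Entries of 1 identifier (113 to 142 identifiers per library had several) were summed, and symbols came from the RefSeq table of GRCm38.p6 (24462 of 24532 matched). Raw read numbers were not used, so no count model was run.

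Values were transformed as log2(TPM + 0.5), which draws fold changes of low genes toward 0. The 14488 genes that reached 1 TPM in 3 or more libraries were kept. All 12 libraries entered 1 fit with a mean for each group in limma 3.58.1 in R 4.3.3, with variances following the mean level, and p-values were adjusted by Benjamini-Hochberg over all genes within each of 5 comparisons. The procedure was first tested on simulated data. With 3 libraries against 3, the smallest two-sided p of an exact permutation test is 0.1, so none was run. The alternatives changed the pseudocount, filter, scaling, unit, variance trend, library weights or samples in the fit, added a replicate block or a fat score (the average over the fat genes Adipoq, Plin1, Cfd and Cidec, in log2) as a term, or left out 1 library at a time. Tables and figures used Python 3.11.15, pandas 2.3.3 and matplotlib 3.10.9.

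The members, lists and rules were chosen with earlier results of these data known. Named were all 9 members, the 3 genes most like each called member, and some called genes of each list (up to 4 per direction). The list genes named were not always those with the lowest limma p.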

Additional observations from a re-analysis of the deposited data

Results flagged for a closer look

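The effect of GW4064 differed between genotypes for 2 of the 9 pump genes by the interaction test (limma, Benjamini-Hochberg adjusted p under 0.05). For Abcc4 the effect in the knockout minus that in wild type was 1.12 ± 0.17 on the log2 scale (SE, adjusted p = 0.00492, limma), higher with the agonist in 3 of 3 knockout libraries and lower in 3 of 3 wild-type libraries. For Abcc1 it was 0.42 ± 0.10 (adjusted p = 0.0463, limma), with a range of adjusted p from 0.022 to 0.133 over its alternatives. Groups of 3 are too small for a check of single outlying libraries.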

How the results depend on the processing

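Of 45 differences (9 genes, 5 comparisons), 10 passed, 6 of them in every alternative run. Those 6 were Abcc4 in wild type, between genotypes under GW4064 and for the interaction, Abcb1b under GW4064, and Abcg2 between genotypes on both treatments. None of the 10 changed sign. The number of members called with GW4064 in wild type was 2, with 3 under quantile scaling or array weights and 1 to 3 without single libraries. In the knockout it was 0, and 0 to 1 without single libraries. Between genotypes on vehicle it was 1, with 2 at a filter of 5 TPM and 1 to 2 without single libraries. Under GW4064 it was 5, with 6 under median-of-ratios or quantile scaling and 3 when the fat score was a term. Without single libraries it was 3 to 6. For the interaction it was 2, and it was 1 with no filter, median-of-ratios or quantile scaling, FPKM, no variance trend, the fat score or a replicate block, and 1 to 3 without single libraries.

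Same-numbered libraries did not pair (correlations of their deviations from the group means were -0.0748 to 0.0829 over 18 pairs). The replicate block ended the call of Abcc5 under GW4064 (limma adjusted p = 0.061) and of Abcc1 for the interaction (0.0552), and of no other member, leaving 4 and 1 members called.

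Sign changes were confined to differences near 0 that never passed. Abcc5 in wild type was 0.0334, 0.0246 and 0.0140 with median-of-ratios scaling, quantile scaling and FPKM, and on vehicle 0.0764, 0.0601 and 0.0156. Abcg2 in wild type was 0.0118 with median-of-ratios scaling and 0.00145 with the fat score, and for the interaction 0.0199 with quantile scaling. With quantile scaling Abcc2 on vehicle was -0.00294 and Abcc3 0.0522, and Abcc2 was -0.00136 with array weights. Without single libraries Abcc5 ranged from -0.0499 to 0.0396 in wild type and -0.0597 to 0.0492 on vehicle, Abcc2 from -0.0368 to 0.0697 on vehicle, Abcb1a from -0.149 to 0.0948 and Abcg2 from -0.0488 to 0.0122 in the knockout, and for the interaction Abcc6 from -0.104 to 0.102 and Abcg2 from -0.0265 to 0.0345. The cause was not tested.

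Over all genes the calls numbered 696 (334 to 938 over the alternatives) in wild type, 2 (0 to 51) in the knockout, 1872 (926 to 1903) on vehicle, 2677 (1726 to 2808) under GW4064 and 462 (207 to 535) for the interaction. The split was 360 higher and 336 lower in wild type (458 and 226 with median-of-ratios scaling), 462 and 1410 on vehicle (846 and 533), 1026 and 1651 under GW4064 (1243 and 1317), and 213 and 249 for the interaction (138 and 362). Abcc3, the lowest member, was under the filter with 5 TPM, so that alternative gave it no value. The lowest coverage of the 9 was that of Abcc3, at 1.88 to 5.26. For the interaction, a fit on only the groups compared was not run, since it needs all 4.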
